A study of Homo sapiens with 24 samples.

Results

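AMHR2, FAM178B, NMU, RNASE1, TGM2, KCNH2, EPCAM and PRG2 are 8 genes, of 27311 gene symbols in the count table, whose transcripts fell in K562 cells given siRNAs against GATA1 and which belong to no standard erythroid pathway. They were chosen by symbol with those falls already known, so their levels with the GATA1 siRNAs are given below as a description, with standard errors and no p-values. K562 is a human leukaemia line with erythroid features. K562 cells were transfected with an Ambion Silencer Select siRNA, 200000 cells at a time, and polyadenylated RNA was taken 48 h later for BRB-seq, a multiplexed method that counts 3' ends of transcripts. The 24 libraries formed 6 groups of 4: siGATA1-1 (s5593) at 25 nM, siGATA1-2 (s5594) at 6.25 nM, and each of the negative controls siNC-1 (4390844) and siNC-2 (4390847) at both doses. Each GATA1 siRNA was given at 1 dose, so siRNA and dose cannot be told apart between them, and no untransfected cells are among the libraries. Nothing in the labels ties the libraries of a group to separate days or cultures, so the errors below measure the spread between these libraries.

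GATA1 is a zinc-finger transcription factor that binds GATA motifs in DNA and is needed for red cell and megakaryocyte development, where it turns on globin, haem and membrane genes. It also acts in eosinophils and mast cells. The 8 genes lie outside its best-known programme and do unlike things: AMHR2 is the type II receptor for anti-Mullerian hormone, NMU a secreted neuropeptide, RNASE1 a secreted ribonuclease, PRG2 the eosinophil granule major basic protein, TGM2 a protein-crosslinking transglutaminase, KCNH2 the hERG potassium channel, EPCAM an epithelial adhesion molecule, and FAM178B a little-studied relative of SLF2.

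The RefSeq promoter table (GRCh38.p14) held windows for 5 of the 8 genes: AMHR2, FAM178B, NMU, RNASE1 and KCNH2. TGM2, EPCAM and PRG2 had no entry. The 250 bases upstream of each listed start were searched on both strands for the usual forms of the GATA1 motif, which are AGATAA and its variant AGATAG, and the pair that begins with T, TGATAA and its variant TGATAG. A match was found in 3 of 11 windows (27.3%), against 22.3% of 35116 windows in the table, and these 3 windows are shown because they are the ones that hold the motif, marked in capitals. FAM178B upstream 1 lies at chr2:96898134-96898383 on the minus strand, with TGATAG read on the opposite strand. FAM178B upstream 2, at chr2:96895169-96895418 on the minus strand, has TGATAA 110 bases before the start and AGATAA on the opposite strand 43 bases before it. KCNH2 upstream 3, at chr7:150960057-150960306 on the minus strand, has AGATAG 16 bases before the start.
FAM178B upstream 1: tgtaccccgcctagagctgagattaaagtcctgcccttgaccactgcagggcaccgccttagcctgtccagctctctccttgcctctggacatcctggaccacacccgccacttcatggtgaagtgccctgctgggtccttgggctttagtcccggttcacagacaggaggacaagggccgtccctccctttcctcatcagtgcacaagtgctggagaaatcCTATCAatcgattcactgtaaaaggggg
FAM178B upstream 2: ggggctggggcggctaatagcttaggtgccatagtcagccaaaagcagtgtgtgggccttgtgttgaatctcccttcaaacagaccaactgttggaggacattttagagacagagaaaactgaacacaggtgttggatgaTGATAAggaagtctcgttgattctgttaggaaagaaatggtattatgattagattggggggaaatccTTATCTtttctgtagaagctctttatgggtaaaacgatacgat
KCNH2 upstream 3: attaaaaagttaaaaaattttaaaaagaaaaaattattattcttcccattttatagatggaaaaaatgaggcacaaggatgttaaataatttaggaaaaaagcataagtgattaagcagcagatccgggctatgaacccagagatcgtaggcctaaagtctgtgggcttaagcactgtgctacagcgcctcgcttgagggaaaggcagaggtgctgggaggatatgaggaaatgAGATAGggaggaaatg
The 4-letter core GATA, which the longer forms contain, was in 7 of the 11 windows (63.6%), against 45.6% of all windows. Each of the 5 genes had it at least once. The genes have from 1 window (AMHR2) to 5 (KCNH2), and no share by gene was worked out to set beside that. A match is a run of letters in a window, not a measured binding site, and no binding data were used here.

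The libraries held 88290 to 473098 counts, of which 93.7% fell in the 6738 genes tested, and all 8 genes were among these with counts in every library. Levels are given as CPM: each library's counts divided by its own effective total, so that libraries of unequal depth can be set side by side. GATA1 itself was 289 ± 31.9 CPM (SD, n = 4) with siGATA1-1 against 569 ± 101 (n = 8) in the controls at 25 nM. The fold change of the fitted edgeR model put it at 51.1% of control. With siGATA1-2 it was 244 ± 71.4 CPM (n = 4) against 543 ± 47.2 (n = 8) at 6.25 nM, and 43.8% of control by the same model. Both falls had p = 0.00404 in a two-sided exact permutation test, the smallest that this design allows. Most erythroid markers moved with the knockdown. Of 11 tested, 9 passed as lower (edgeR adjusted p under 0.05) with the 2 GATA1 siRNAs averaged, beside 1.88% of all tested genes. GYPB (log2 0.03, SE 0.21) and AHSP (log2 -1.21, SE 0.40) did not pass. The 12 listed markers summed to 13395 to 17857 CPM with siGATA1-1 against 19705 to 25023 in the controls at 25 nM. For siGATA1-2 the sum was 13212 to 19261 CPM against 25561 to 31074 at 6.25 nM. HBG1 and HBG2 were the largest parts of these sums. They averaged 4690 and 6630 CPM with the GATA1 siRNAs and 7498 and 10047 CPM in all controls. In bulk RNA, fewer cells that make a transcript and less transcript per cell cannot be told apart.

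With the 2 GATA1 siRNAs averaged, each against the controls of its own dose, all 8 genes passed the threshold of edgeR's quasi-likelihood test (adjusted p under 0.05) as lower, beside 1.88% of all tested genes. Since this contrast chose them, the count supports nothing. The averaged log2 fold change ran from -1.53 (SE 0.19) for AMHR2 to -0.62 (SE 0.16) for PRG2, that is from 2.89-fold to 1.53-fold lower. Ranked by fold among the 127 genes that passed as lower, AMHR2 was number 7, FAM178B 11, TGM2 31, RNASE1 32, NMU 33, EPCAM 40, KCNH2 60 and PRG2 88. By siRNA, 6 of the 8 passed with siGATA1-1 (all but EPCAM and PRG2), beside 0.341% of all genes, and 7 passed with siGATA1-2 (all but PRG2), beside 1.28%.

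**Figure D1:**
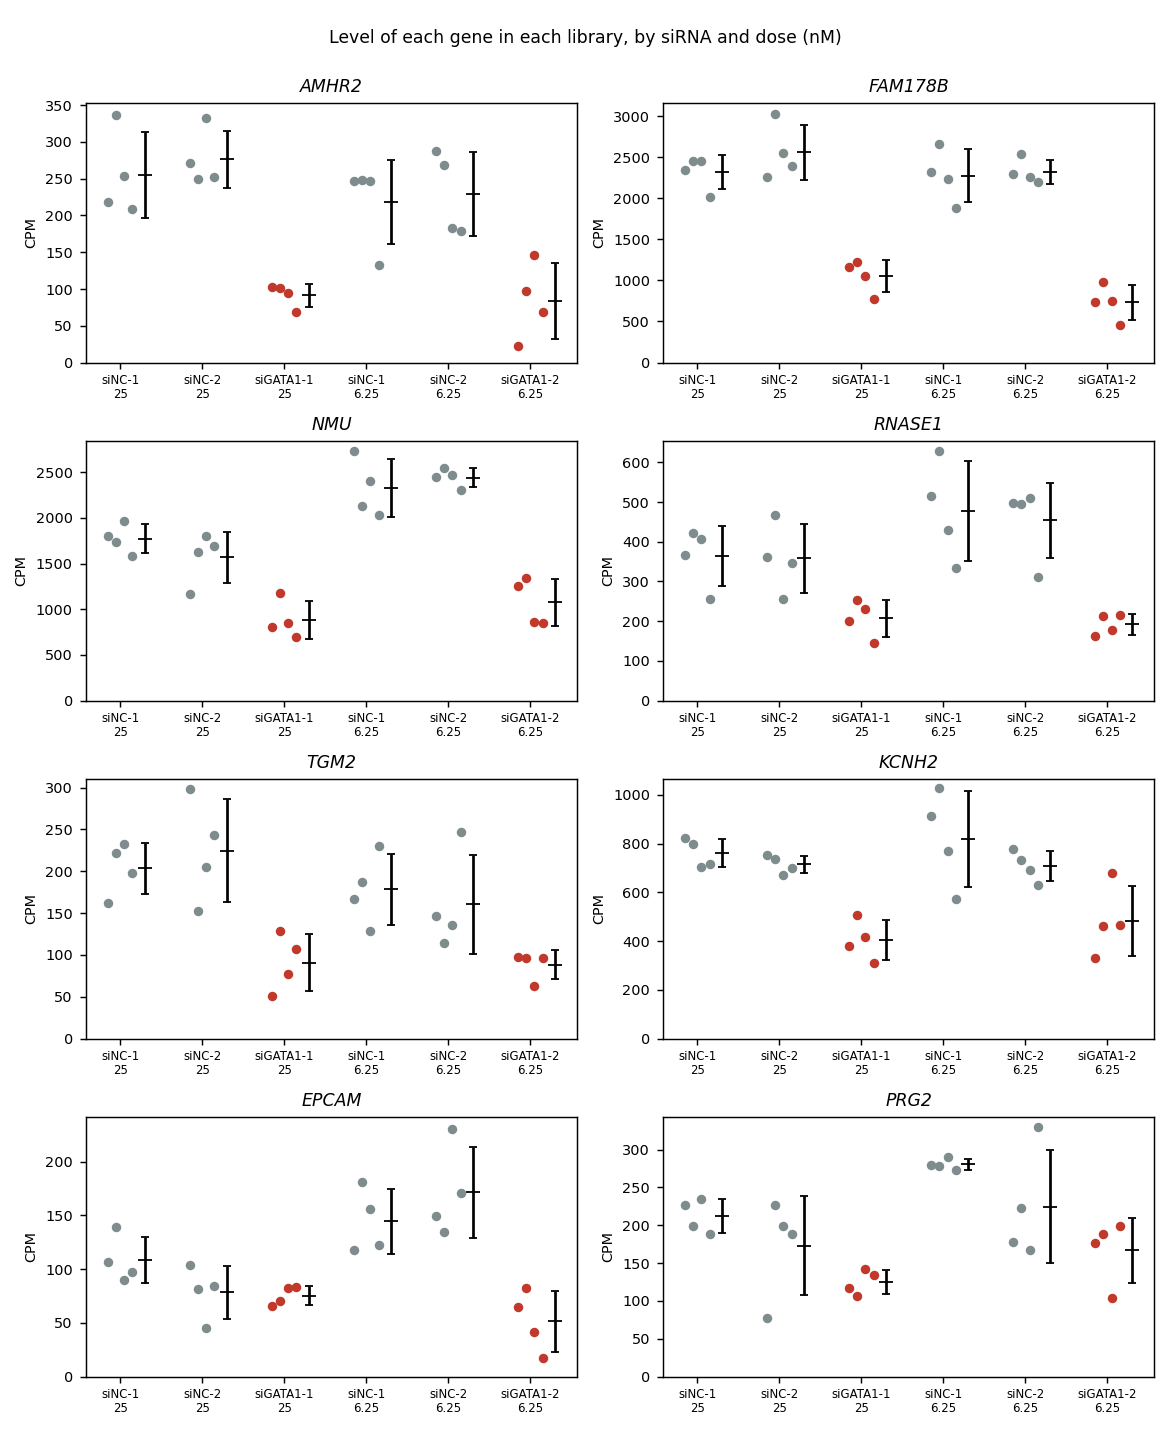
Level of each of the 8 genes (CPM, linear axis from 0) in every library, by siRNA and dose in nM. Points are libraries (red, GATA1 siRNAs; grey, control siRNAs), and the bar beside each group is its mean ± SD (n = 4). For FAM178B and RNASE1 every red point lies below every grey point.

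FAM178B had the cleanest separation. Its paralogue SLF2 is a partner of the SMC5/6 genome-maintenance complex, and the role of FAM178B itself is not established. Its level was 1166, 1224, 1055 and 776 CPM in siGATA1-1 replicates 1 to 4 and 737, 978, 750 and 460 CPM in those of siGATA1-2. The 8 controls at 25 nM ran from 2018 to 3029 CPM with a median of 2426, and the 8 at 6.25 nM from 1875 to 2662 with a median of 2275. Every knockdown library was thus below every one of the 16 controls. The log2 fold change was -1.21 (SE 0.12) with siGATA1-1 and -1.65 (SE 0.13) with siGATA1-2.

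RNASE1, the pancreatic-type ribonuclease that breaks down extracellular RNA, was the other gene whose 8 knockdown libraries lay below all 16 controls, by a narrow margin. Its level was 199, 252, 230 and 146 CPM with siGATA1-1 and 162, 213, 177 and 216 CPM with siGATA1-2. The controls ran from 256 to 468 CPM at 25 nM (median 365) and from 311 to 629 at 6.25 nM (median 497). The highest knockdown library, at 252 CPM, thus sat just under the lowest control. Its log2 fold change was -0.81 (SE 0.19) with siGATA1-1 and -1.26 (SE 0.21) with siGATA1-2. Among all tested genes, 0.163% had all 8 knockdown libraries below all 16 controls, against these 2 of the 8.

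AMHR2, which binds anti-Mullerian hormone and signals through SMAD proteins as BMP receptors do, had the largest averaged fall. It was at 102, 101, 94.3 and 68.4 CPM with siGATA1-1 and at 23.2, 96.8, 146 and 68.1 CPM with siGATA1-2. Controls were 208 to 337 CPM at 25 nM (median 253) and 133 to 288 CPM at 6.25 nM (median 247). The siGATA1-1 libraries lay below all their controls, and the siGATA1-2 libraries overlapped them only through replicate 3 at 146 CPM and a siNC-1 library at 133 CPM. The log2 fold changes were -1.52 (SE 0.25) and -1.54 (SE 0.28), the second from 5 to 20 counts per knockdown library. Without siGATA1-2 replicate 1, which had 5 counts, the second was -1.18 and the averaged value -1.35. FAM178B had an averaged value of -1.43 with all libraries kept, so the first place of AMHR2 leans on that library.

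AMH, the hormone for this receptor, did not pass the test (log2 0.02, SE 0.26). It was 66.1 ± 32.0 CPM (SD, n = 8) with the GATA1 siRNAs and 66.2 ± 25.3 (n = 16) in the controls. Of 17 listed genes of BMP and anti-Mullerian hormone signalling, 10 were tested: AMHR2 was called lower, 2 were called higher and 7 were not called, with a median log2 fold change of 0.07 against -0.003 over all genes. The share called higher over all genes was 2.6%. The 2 were ID3 and ID1, inhibitors of basic helix-loop-helix factors and common BMP targets. ID3 was 92.4 ± 45.7 CPM against 42.9 ± 18.9 (log2 1.13, SE 0.27, adjusted p = 0.00362 by edgeR's quasi-likelihood test), and without siGATA1-1 replicate 4 its adjusted p was 0.104. ID1 was 78.7 ± 35.9 against 43.7 ± 22.3 (log2 0.90, SE 0.29, edgeR adjusted p = 0.0489), a call that 22 of 30 alternative settings did not keep.

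KCNH2 forms the pore of the hERG channel, which carries the rapid delayed rectifier current in heart muscle. Its level was 378, 507, 419 and 309 CPM with siGATA1-1, all below the controls at 25 nM, which ran from 672 to 821 CPM (median 726). With siGATA1-2 it was 329, 460, 677 and 465 CPM, against 572 to 1028 CPM at 6.25 nM (median 751), so replicate 3 at 677 CPM lay inside the control range. The log2 fold changes were -0.87 (SE 0.15) and -0.69 (SE 0.16).

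TGM2, which crosslinks proteins in a calcium-dependent way and also binds GTP, was at 51.2, 129, 76.6 and 107 CPM with siGATA1-1 and 97.3, 96.8, 62.5 and 96.5 CPM with siGATA1-2. Its controls ran from 152 to 298 CPM at 25 nM (median 213) and from 114 to 247 CPM at 6.25 nM (median 156). Neither siRNA's libraries overlapped the controls of the same dose. The log2 fold changes were -1.19 (SE 0.25) and -0.91 (SE 0.28), from 6 to 46 counts per knockdown library. TGM2 overlaps RPRD1B on the opposite strand in the GENCODE annotation, and RPRD1B itself was not called (log2 0.19, SE 0.25).

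NMU, a peptide that contracts smooth muscle and acts on feeding through its own receptors, was at 811, 1173, 849 and 696 CPM with siGATA1-1 and 1255, 1341, 865 and 851 CPM with siGATA1-2. The controls ran from 1166 to 1965 CPM at 25 nM (median 1714) and from 2037 to 2738 CPM at 6.25 nM (median 2425). All siGATA1-2 libraries were below their controls, and siGATA1-1 overlapped its controls only through siNC-2 replicate 1 at 1166 CPM, the shallowest library of the series. The log2 fold changes were -0.92 (SE 0.13) and -1.13 (SE 0.13), and without that library the first was -0.98.

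PRG2, the main protein of the eosinophil granule core, had the smallest averaged fall and was 117, 106, 141 and 134 CPM with siGATA1-1 and 176, 189, 104 and 199 CPM with siGATA1-2. Controls ran from 77.7 to 235 CPM at 25 nM (median 198) and from 167 to 330 CPM at 6.25 nM (median 276). At 25 nM the overlap came from that same siNC-2 replicate 1, at 77.7 CPM, while at 6.25 nM 3 of the 4 siGATA1-2 libraries lay inside the control range. The log2 fold changes were -0.68 (SE 0.22; -0.76 without that library) and -0.56 (SE 0.23). PRG2 shares its strand and position with the protein-coding gene AP000781.2 in GENCODE, so reads could belong to either.

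EPCAM, a calcium-independent adhesion protein whose inner part is released by proteases to signal with beta-catenin, was the gene whose fall differed most between the siRNAs. With siGATA1-1 it was at 65.4, 70.0, 82.5 and 83.3 CPM, inside the range of the controls at 25 nM (44.8 to 139 CPM, median 93.9). With siGATA1-2 it was at 64.9, 82.3, 41.7 and 17.0 CPM, below every control at 6.25 nM (118 to 231 CPM, median 153). The log2 fold change was -0.29 (SE 0.29) with siGATA1-1 and -1.53 (SE 0.33) with siGATA1-2, where replicates 3 and 4 had 4 and 3 counts. Against siNC-1 alone the siGATA1-1 value was -0.52 and against siNC-2 alone -0.05. Against all 16 controls the values were -0.67 with siGATA1-1 and -1.15 with siGATA1-2. Part of the gap between the siRNAs thus lies in the controls, which averaged 93.4 CPM at 25 nM and 158 CPM at 6.25 nM. The knockdown libraries averaged 75.3 CPM with siGATA1-1 and 51.5 CPM with siGATA1-2.

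**Figure D2:**
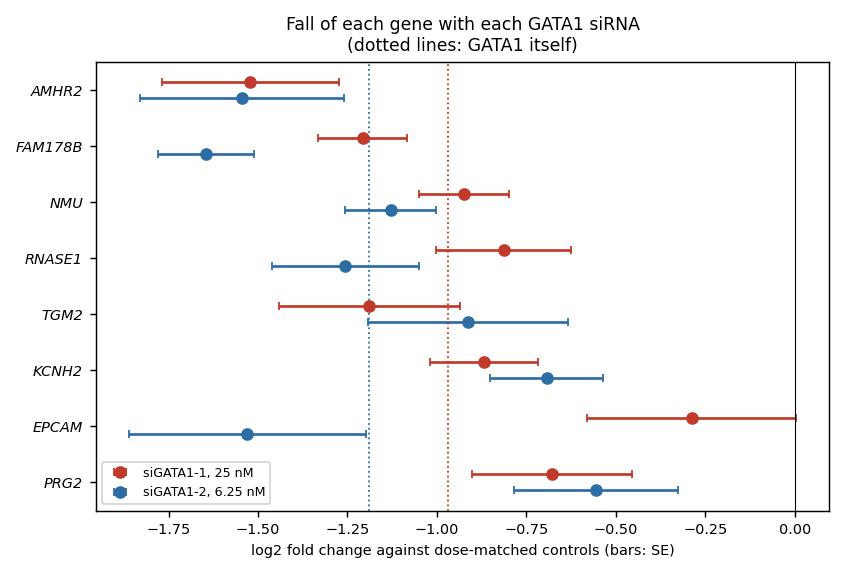
Log2 fold change of each gene against the controls of the same dose (x axis; points, estimates; bars, SE) for siGATA1-1 at 25 nM (red) and siGATA1-2 at 6.25 nM (blue), with dotted lines at the values of GATA1 itself. EPCAM has the widest gap between the siRNAs, -0.29 against -1.53.

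Counted by siRNA, 5 of the 8 genes had all siGATA1-1 libraries below their 8 controls (AMHR2, FAM178B, RNASE1, TGM2 and KCNH2), beside 0.92% of all tested genes. With siGATA1-2 the count was also 5 (FAM178B, NMU, RNASE1, TGM2 and EPCAM), beside 0.994%. The median log2 fold change of the 8 was -0.90 with siGATA1-1 and -1.19 with siGATA1-2, while the medians over all tested genes were 0.006 and -0.01.

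Whether the 2 GATA1 siRNAs differed was tested as the difference between their effects. None of the 8 genes, and 0.0% of all tested genes, passed after adjustment in edgeR's quasi-likelihood test, and DESeq2 called none. Without adjustment, 333 genes had p under 0.05, 2 of them among the 8. For EPCAM the siGATA1-1 effect was higher by 1.24 (SE 0.44, 95% interval 0.37 to 2.12, edgeR adjusted p = 0.726), and for FAM178B by 0.44 (SE 0.17, interval 0.09 to 0.78, adjusted p = 0.954). For the other 6 the difference lay between -0.27 for TGM2 and 0.44 for RNASE1, with intervals that held 0 and reached as far as -1.02 for TGM2 and 0.99 for RNASE1.

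The control siRNAs give a comparison that played no part in choosing the genes. Between siNC-1 and siNC-2, none of the 8 genes and 0.0% of all genes were called at 25 nM, or at 6.25 nM, by edgeR's quasi-likelihood test or by DESeq2. Without adjustment, 86 genes at 25 nM and 203 at 6.25 nM had p under 0.05, and none of the 8 was among them. The largest differences among the 8 were for EPCAM at 25 nM, 0.47 (SE 0.33, 95% interval -0.19 to 1.14), and for PRG2 at 6.25 nM, 0.30 (SE 0.25, interval -0.19 to 0.78).

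The dose of control siRNA did go with one of the genes. NMU was 1671 ± 236 CPM (SD, n = 8) in the controls at 25 nM and 2385 ± 224 CPM (n = 8) at 6.25 nM, with no overlap between the doses. Its log2 difference was -0.51 (SE 0.10, 95% interval -0.70 to -0.31, adjusted p = 3.44e-04 by edgeR's quasi-likelihood test), and it passed in all 21 alternative settings tried. None of those settings allowed for likeness between same-numbered siNC-1 and siNC-2 libraries. The errors and p-values between the doses, here and below, thus take the control libraries as independent. Of all tested genes 1.41% were called between the doses, 0.727% as lower at 25 nM and 0.683% as higher, against 1 of the 8 genes. NMU was thus lower in the controls at 25 nM than in those at 6.25 nM. GATA1 did not pass this comparison (log2 0.07, SE 0.12, 95% interval -0.17 to 0.32, edgeR adjusted p = 0.863). Whether GATA1 has a part in the NMU difference was not tested.

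EPCAM was 93.4 ± 26.6 CPM at 25 nM and 158 ± 36.9 CPM at 6.25 nM (n = 8 each), a log2 difference of -0.77 (SE 0.23, 95% interval -1.22 to -0.31). This missed the threshold (edgeR adjusted p = 0.0706) but passed with DESeq2 (adjusted p = 0.0107), with a stricter filter on low counts (0.0363) and with only the control groups fitted (0.0404). RNASE1 and PRG2 were lower by the same amount, -0.35 each (SE 0.15 and 0.17), with edgeR adjusted p of 0.244 and 0.365 and 95% intervals of -0.64 to -0.06 and -0.70 to -0.01. Without adjustment, 888 of the 6738 genes had p under 0.05 between the doses, 4 of them among the 8 (NMU, EPCAM, RNASE1 and PRG2). AMHR2 (0.24, SE 0.18), TGM2 (0.29, SE 0.20), FAM178B (0.09, SE 0.10) and KCNH2 (-0.05, SE 0.12) did not pass, and their intervals held 0. In the controls the dose goes with the replicate numbers, 1 to 4 at 25 nM and 5 to 8 at 6.25 nM. Dose and any other difference between those sets of libraries thus cannot be told apart.

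**Figure D3:**
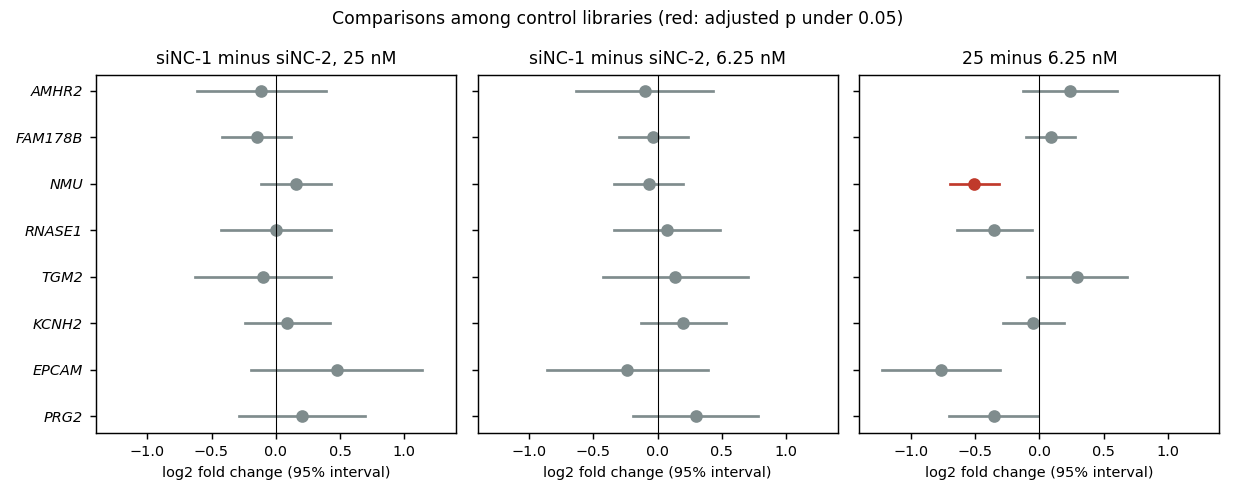
Differences among the 16 control libraries for the 8 genes: siNC-1 minus siNC-2 at 25 nM, the same at 6.25 nM, and 25 minus 6.25 nM over both controls (x axes, log2; points, estimates; lines, 95% intervals; red, adjusted p under 0.05). Only NMU, at -0.51 between the doses, is red.

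The fetal globins moved with NMU between the doses. HBG1 was 6265 ± 799 CPM at 25 nM and 8732 ± 760 at 6.25 nM (log2 -0.48, edgeR adjusted p = 1.26e-05), and HBG2 was 8504 ± 866 and 11590 ± 812 (log2 -0.45, adjusted p = 2.29e-05; n = 8 each). HBG1 and HBG2 are near-identical genes, and the counting could split reads between them. Of the 11 erythroid markers tested, these 2 were called lower at 25 nM, 1 was called higher (GYPB, log2 0.88, edgeR adjusted p = 0.0299) and 8 were not called, with a median of 0.05 over the 11. Among those not called, the embryonic globin HBZ was at -0.38 (SE 0.11, edgeR adjusted p = 0.0559). HBG1 and HBG2 were also the genes most like NMU over the 24 libraries, with Pearson r of 0.93 and 0.92. Over the 16 controls alone, which span both doses, r was 0.90 for each. With each library's group mean removed, r over the 24 was 0.72 for HBG1 and 0.61 for HBG2.

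**Figure D4:**
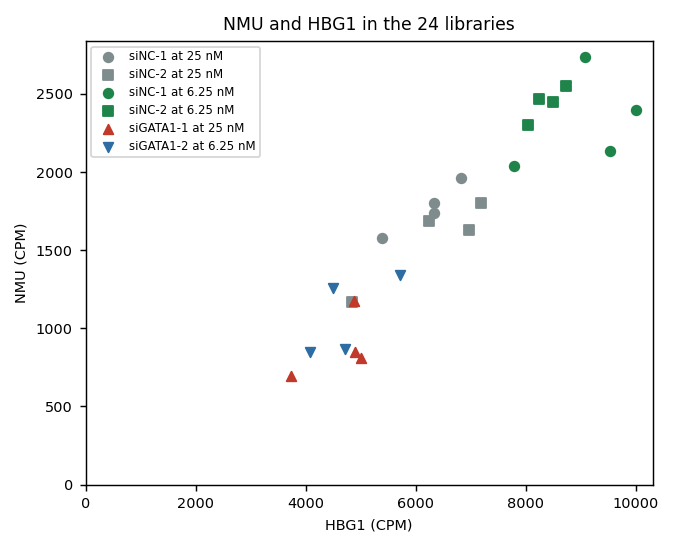
NMU (y axis) against HBG1 (x axis), both in CPM, in the 24 libraries, marked by siRNA and dose. The controls at 6.25 nM have 2037 to 2738 CPM of NMU, those at 25 nM 1166 to 1965, and the GATA1 siRNA libraries 696 to 1341.

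For the other genes, the closest patterns over the 24 libraries were taken from 6726 genes compared. Those nearest to FAM178B were HBA1 (r = 0.94), HBZ (0.93) and GATA1 (0.92). RNASE1 was closest to HBE1 (0.92), HBZ (0.91) and HBG2 (0.86), and AMHR2 to KCNH2 (0.88), FAM178B (0.87) and HBA1 (0.85). KCNH2 was closest to AMHR2, then RNASE1 (0.85) and HBE1 (0.80). The next closest to NMU was the long non-coding RNA UCA1 (0.88). TGM2 had BLVRB (0.75), HES6 (0.72) and ATIC (0.72), EPCAM had SLC7A8 (0.79), GSTO1 (0.78) and HBZ (0.78), and PRG2 had PFDN2 (0.77), CITED2 (0.76) and DUT (0.73). These are descriptions: all genes of a library share its depth, and 8 of the 24 libraries carry the knockdown, with which all 8 genes were lower.

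With the knockdown set aside, the correlations between pairs of the 8 genes went in both directions, in counts where sampling noise alone brings r towards 0. Over 24 libraries the 28 pairs among them were all positively correlated, with a median r of 0.67. Over the 16 controls 16 of the 28 pairs were positive and the median was 0.09, from -0.64 for NMU with TGM2 to 0.65 for NMU with PRG2. After each library's group mean was removed the median over the 24 was 0.04, and the highest pair was AMHR2 with KCNH2 at 0.79. By that measure, which also takes out the difference between the doses, NMU with TGM2 was -0.01 and NMU with PRG2 0.36. Over the 16 controls with both doses pooled, no relation between the level of GATA1 and that of any of the 8 passed after Benjamini-Hochberg adjustment over the 8 relations. The largest Pearson r was that of PRG2, at 0.57 (permutation p = 0.0348, adjusted 0.278), with Spearman rho of 0.26 (permutation p = 0.325, adjusted 0.995) and r of 0.12 without the 2 libraries farthest in GATA1. Within the doses, where r was not tested, the PRG2 r was 0.85 at 25 nM and 0.30 at 6.25 nM, and that of NMU was 0.92 and -0.15. At 25 nM the shallowest library, siNC-2 replicate 1, was the lowest control for GATA1, NMU and PRG2 alike. By Spearman the largest in size was RNASE1, with rho of -0.38 (permutation p = 0.148, adjusted 0.995).

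Most of the genes were counted in these cells with few reads of their close relatives. Counts are of 3' ends, which do not scale with transcript length, and are summed over the 24 libraries. TGM2 had 972 counts and 8 other transglutaminase family genes 24 together. KCNH2 had 3827 and 7 other KCNH channels 32, and RNASE1 had 1995 and 7 other RNase A family genes 9. NMU had 9940 counts, while its receptor NMUR1 had 6 and NMUR2 and the related peptide NMS none. So no relative of these could be tested for a change at this depth.

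Apart from ID3 and ID1 of the AMHR2 list, none of the listed partners that had enough counts passed the test for the averaged effect. RNH1, the inhibitor that binds RNASE1, had a log2 fold change of -0.16 (SE 0.13). The channel genes KCNN4 and KCNE3 had -0.25 (SE 0.22) and 0.14 (SE 0.40). For EPCAM, CTNNB1 (beta-catenin) had 0.22 (SE 0.13). The protease gene ADAM17 had -0.06 (SE 0.28) and the protease subunit gene PSENEN 0.10 (SE 0.23). SLF2, the paralogue of FAM178B, had 0.13 (SE 0.41), and the SMC5/6 genes SMC6, NSMCE1 and NSMCE2 ran from -0.31 to 0.34. SRGN, the granule proteoglycan core listed with PRG2, had 0.23 (SE 0.12).

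EPCAM and PRG2 are also markers of other cell types, and those types' other markers were read beside them. Of 8 epithelial markers 4 were tested and only EPCAM was called lower: KRT19 had -0.05 (SE 0.11), KRT8 -0.03 (SE 0.29) and KRT18 0.24 (SE 0.31). CDH1 and KRT5 had 1 count each and KRT14 none. The epithelial markers other than EPCAM summed to 589 to 809 CPM with siGATA1-1 against 516 to 873 in the controls at 25 nM, and to 490 to 624 with siGATA1-2 against 587 to 735 at 6.25 nM. With siGATA1-2, where EPCAM was lowest, KRT19 was at 386 to 477 CPM, below every control at 6.25 nM (489 to 607), and its log2 fold change was -0.30 (SE 0.16, edgeR adjusted p = 0.331). With siGATA1-1 it was 599 ± 70.1 CPM (n = 4) against 520 ± 96.2 (n = 8). Of 11 eosinophil and mast cell markers, PRG2 and KIT were tested, KIT at -1.03 (SE 0.38, edgeR adjusted p = 0.105), and the other 9 had 72 counts in all. Without PRG2 that list summed to 2.97 to 104 CPM with the GATA1 siRNAs and 30.4 to 151 in the controls. Of the myeloid markers 3 of 4 tested were called higher, beside 2.6% of all genes. The 9 listed summed to 832 to 1459 CPM with the GATA1 siRNAs against 496 to 777 in the controls. The part of these markers in the falls of the 8 genes was not tested.

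Genes next to the 8 on the chromosome did not pass. Of 32 protein-coding neighbours, the nearest 2 on each side, 13 were tested and none was called, beside 4.48% called in either direction over all genes. Their log2 fold changes had a median of 0.003, and FAHD2B, beside FAM178B, had the highest at 0.41 (SE 0.41). SLC43A3, next to PRG2, had -0.53 (SE 0.21, edgeR adjusted p = 0.14).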

How the data were processed

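Polyadenylated RNA of 24 K562 samples was read as 3' ends. The values are whole-number counts per gene symbol, deposited by the authors as 1 table; the submitters' processing notes name STAR 2.5.6b and hg19, and for the counting tool, strand setting and read filters the sources used here give nothing. Of 27311 symbols, 7667 had no counts and 27 read as dates. Genes passing filterByExpr (minimum count 10) were fitted in edgeR 4.0.16 (R 4.3.3) with TMM scaling, 6 group means and robust quasi-likelihood dispersion; p-values were Benjamini-Hochberg adjusted over all 6738. A call is an adjusted p under 0.05. CPM uses the TMM library sizes, and log2 CPM a prior count of 2. Intervals cover 95%. The 8 genes and the gene lists were chosen with earlier results of these data known. Other genes named are, for each of the 8, the 3 with the highest Pearson r among genes averaging at least 5 counts, the neighbours, and the called genes of each list (up to 5, or up to 3 tested genes if none was called); SMC6, NSMCE1, NSMCE2, KIT, HBZ between the doses, and genes named for low counts or at the ends of a range, were added after their values were seen. The procedure was tested on simulated data. Alternatives included relative log expression scaling, DESeq2 1.42.0, other filters, other control sets and leaving out each library. No 2 libraries held identical counts.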

Additional observations from a re-analysis of the deposited data

Results flagged for a closer look

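In each group of 4 libraries, a library was singled out when its gap to the nearest other was too large a share of the group's range by Dixon's test, which by chance does so in about 1 of 20 groups. Over 54 sets, 9 genes in 6 groups, 4 were singled out. AMHR2 was 133 CPM in siNC-1 at 6.25 nM replicate 8, against 247 to 248 in the other 3 libraries. RNASE1 was 311 CPM in siNC-2 at 6.25 nM replicate 8, against 496 to 510. TGM2 was 62.5 CPM in siGATA1-2 replicate 3, from 6 counts, against 96.5 to 97.3. GATA1 was 242 CPM in siGATA1-1 replicate 3, against 300.3 to 308. All 4 were the lowest of their group, and the AMHR2 and RNASE1 libraries were both replicate 8 at 6.25 nM.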

How the results depend on the processing

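Over 1192 recomputed log2 values of the 8 genes, none changed sign where called and 2 moved by more than the spread between replicates. Both were NMU with all 16 controls pooled, at -1.18 with siGATA1-1 and -0.88 with siGATA1-2. The number of the 8 called between the control doses was 1, and 2 with DESeq2, with a mean of at least 20 counts, and with only the groups compared; leaving out single libraries gave 1 throughout. Those called lower with siGATA1-1 numbered 4 to 6 when single libraries were left out (4 without siGATA1-1 replicate 1) and 7 with all 16 controls; with siGATA1-2 they numbered 5 to 7 (5 without replicate 1, and with siNC-2 alone). For the averaged effect the count was 8 except 7 with siNC-2 alone. Correlations of same-numbered libraries ran from -0.09 to 0.26; the 4 of 16 above 0.1 were all among the 8 pairs of siNC-1 with siNC-2. Not every pair passed 0.1, so the libraries were fitted as unpaired, which does not show that same-numbered control libraries are independent. Replicate 8 at 6.25 nM (r = 0.25) was the lowest of its group with both siNC-1 and siNC-2 for AMHR2, FAM178B, NMU, RNASE1 and KCNH2. For TGM2 it was the highest in both, and EPCAM and PRG2 showed no such match. With the replicate block the siGATA1-1 count was 6 and the 2 siNC-1 against siNC-2 counts were 0; siGATA1-2 shares no number with its controls. For ID3 the adjusted p by edgeR was 0.14 with siNC-1 alone. The median pair correlation of 0.67 over 24 libraries became 0.09 in the controls. Depth limits EPCAM most: it averaged 25.5 counts per library, and the shallowest library held 88290 counts.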
